A study of Mus musculus with 5 samples.

Results

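HSF1 peaks were examined at 9 genes that build the adhesion and scaffold apparatus of the synapse: Nrxn3, Nlgn1, Nlgn2, Nlgn3, Dlg2, Dlg4, Shank1, Shank2 and Shank3. They are 9 of the 21627 protein-coding genes that the annotation places on an autosome or on X. They were chosen by name, with earlier results of these data known. A peak was counted for a gene when its summit lay inside the gene or within 10 kb of it. The NMDA list held 16 such peaks among 3646, and the control list held 19 among 3316. HSF1, the transcription factor of the heat shock response, had been immunoprecipitated with its bound DNA and the DNA sequenced (ChIP-seq) in wild-type primary cortical neurons from Swiss-Webster mouse embryos of embryonic day 16, kept in culture until day 13. There were 2 ChIP libraries from neurons given 50 µM NMDA for 10 min and then 20 min of drug-free medium, 2 ChIP libraries from untreated neurons, and 1 input library from untreated neurons. The study asked how HSF1 bears on where topoisomerase IIβ engages the DNA of neurons. The deposited results are 1 peak list per condition that combines its libraries, so no value has a replicate error, library depth is unknown, and any difference is between lists, not shown to be between conditions. The files hold no expression values, so the cell type could not be checked against marker genes.

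Neurexins sit in the presynaptic membrane and bind neuroligins across the synaptic cleft. On the postsynaptic side neuroligins bind PSD-95 and its relatives, the membrane-associated guanylate kinases, which also hold NMDA receptors in place. Shank proteins lie deeper in the postsynaptic density and link this layer through Dlgap proteins to Homer and the actin cytoskeleton. Nrxn3, Nlgn1 and Dlg2 are among the long genes of the genome, and neurexin genes are known to make long and short forms from separate promoters. HSF1 itself binds DNA as a trimer at inverted repeats of the triplet GAA, the heat shock element, and its best known targets are chaperone genes.

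Most peaks lay in Dlg2, Nrxn3 and Nlgn1. At 1973, 1612 and 911 kb, these genes also make up most of the sequence searched. In the NMDA list Dlg2 held 11 peaks, Nlgn1 4 and Nrxn3 1, and the other 6 genes held none. In the control list Nlgn1 and Nrxn3 held 6 each, Dlg2 4, Shank3 2 and Shank2 1. Nlgn2, Nlgn3, Dlg4 and Shank1 held no peak in either list. Peaks in the NMDA list were therefore present at 3 of 9 genes, where 9.41% of all protein-coding genes had one, and in the control list at 5 of 9, where 10.3% had one. Length bears on this comparison, because the 4 genes above 400 kb were among the 5 with a peak. Of other protein-coding genes of 400 to 1000 kb, 62.4% had an NMDA peak and 57.9% a control peak. Above 1000 kb, 87.7 and 86.0% did, so a peak was usual at these lengths. The shares of all genes are therefore no fair measure for the 9. Over the 9 genes with their 10 kb margins, 5308 kb in all, the NMDA list gave 0.301 peaks per 100 kb and the control list 0.358. Over all protein-coding genes with the same margins it was 0.168 in both lists, which makes the 9 genes 1.80 and 2.13 times as dense. Gene by gene, Dlg2 had 0.552 peaks per 100 kb in the NMDA list (exact Poisson 95% interval 0.276 to 0.988) and 0.201 in the control list (0.0547 to 0.514). Nlgn1 had 0.430 (0.117 to 1.10) and 0.644 (0.236 to 1.40) in the same order, and Nrxn3 had 0.0613 (0.00155 to 0.341) and 0.368 (0.135 to 0.800). The intervals of the lists overlapped at each of these genes, and they cover counting error only. Shank3, a much shorter gene, had 2.29 control peaks per 100 kb (0.278 to 8.28) and Shank2 had 0.214 (0.00541 to 1.19), while 0 NMDA peaks allow up to 3.44 and 0.641 per 100 kb there, taking 3 counts as the limit. All 35 peaks lay inside a gene and none in the margins. The nearest peak left out by the 10 kb limit was an NMDA peak of 2.41-fold enrichment, 42.0 kb from the end of Nlgn1.

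**Figure D1:**
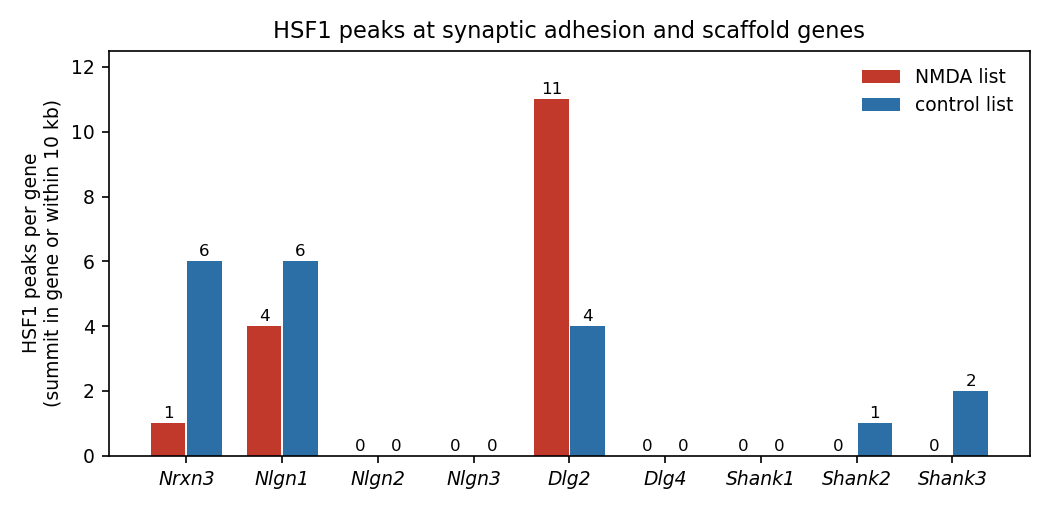
Number of HSF1 peaks at each of the 9 genes (vertical axis, peaks with the summit in the gene or within 10 kb), with the NMDA list in red and the control list in blue. Dlg2 has the highest bar of the NMDA list at 11, and Nlgn1 and Nrxn3 have the highest of the control list at 6 each.

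Nrxn3 encodes neurexin-3, a presynaptic adhesion receptor. The gene lies on the plus strand of chromosome 12, 88722701 to 90334935, and spans 1612 kb. Its single NMDA peak, at 88924955 to 88925187, had 2.80-fold enrichment and lay 12.6% of the way along the gene. Its 6 control peaks had 2.26- to 3.18-fold enrichment and lay between 23.8 and 90.6% of the gene. A single NMDA peak cannot show whether the lists differ in position. No control summit was closer than 181 kb to the NMDA summit. Nrxn3 has 3 starts with a listed promoter, the first of them 71.8 kb inside the annotated 5′ end. The NMDA peak fell between the outermost listed start and the next one, 4 control peaks fell in the 859 kb stretch that follows, and 2 fell beyond the innermost start. The highest control peak, of 3.18-fold at 90183634 to 90184202, had a neighbour of 2.41-fold only 2.21 kb away. No peak of either list came within 28 kb of a listed start, the closest being the NMDA peak at 28.3 kb.

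Nlgn1 encodes neuroligin-1, the postsynaptic partner of neurexins found mainly at excitatory synapses. It lies on the minus strand of chromosome 3, 25421808 to 26332866, and spans 911 kb. The 4 NMDA peaks had 2.62-, 2.69-, 2.97- and 3.33-fold enrichment. The 6 control peaks had 2.11- to 2.77-fold enrichment, so the highest NMDA peaks of the gene stood above its control peaks on scales that differ between the lists. Promoters are listed for an outer start at 26331909 and an inner start at 26153986. Near the inner start lay 1 of the 4 NMDA peaks and 3 of the 6 control peaks. In the NMDA list 1 summit lay 346 bp downstream of this start, in a peak of 607 bp with 2.62-fold enrichment. In the control list 3 summits lay 101, 1375 and 2653 bp downstream of it, with 2.47-, 2.46- and 2.77-fold enrichment. Of these folds only that of 2.77 was above the median of its list, which was 2.69 for NMDA and 2.67 for control. The NMDA peak (26153329 to 26153935) overlapped the control peak nearest to the start (26153783 to 26153971) by 153 bp. It is the only site of the 9 genes where peaks of the lists overlapped. The outer start had no peak nearer than 43.0 kb in the NMDA list or 178 kb in the control list.

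The promoter window of the inner Nlgn1 start, taken from RefSeq on GRCm38.p6 (chr3:26153937-26154236, minus strand, 250 bases before the start and 50 from it on), is shown because a control peak reaches into it. Capitals mark its 35 bases that the control peak covers:
Nlgn1 inner promoter: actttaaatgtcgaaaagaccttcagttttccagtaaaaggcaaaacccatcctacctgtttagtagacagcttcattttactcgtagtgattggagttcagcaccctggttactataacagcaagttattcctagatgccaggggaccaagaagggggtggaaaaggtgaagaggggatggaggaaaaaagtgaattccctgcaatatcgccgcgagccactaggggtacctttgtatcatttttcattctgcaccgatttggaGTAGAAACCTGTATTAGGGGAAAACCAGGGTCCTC

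Neither GAANNTTC nor TTCNNGAA, the paired forms of the heat shock element, was found in this window, each form being its own reverse complement. A lack of these letters in the window says nothing of the rest of the peaks, whose sequence was not used here.

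**Figure D2:**
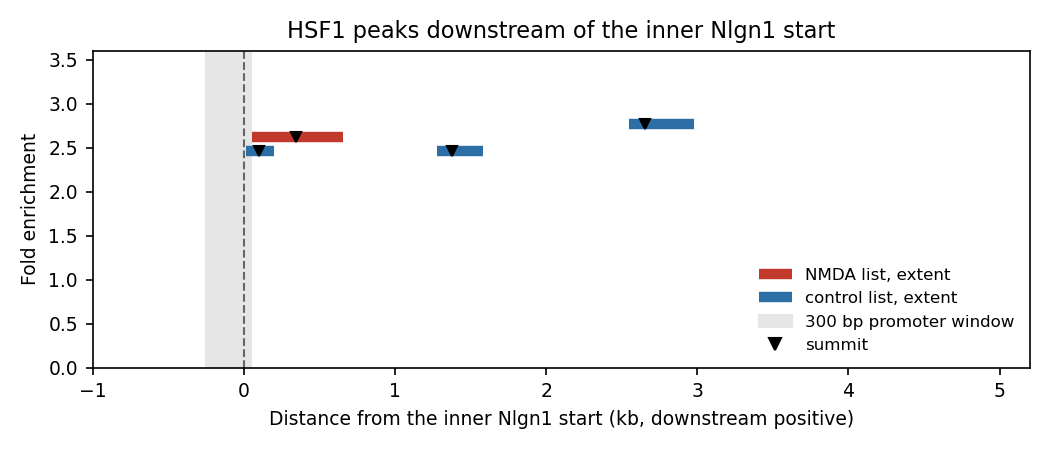
HSF1 peaks within 5 kb of the inner Nlgn1 start: distance along the gene in kb (downstream positive) against fold enrichment, with bars for the extent of each NMDA (red) and control (blue) peak, triangles for the summits and a grey band for the 300 bp promoter window. The NMDA peak and the first control peak overlap just downstream of the start, and 2 more control peaks follow at 1375 and 2653 bp.

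Close spacing of this kind was uncommon. The 3 control summits at the inner Nlgn1 start spanned 2.55 kb. Runs of 3 summits within 3 kb occurred 1 time in the NMDA list, inside Top2b, and 4 times in the control list on the autosomes and X. Besides the run in Nlgn1, those of the control list were 1 inside Top2b and 2 next to each other on chromosome 17 (39843317 to 39848597), beside and over an 18S ribosomal RNA pseudogene. At the 9 genes 0 of 16 NMDA peaks and 5 of 19 control peaks had another summit of the same list within 5 kb, against 3.46% of all NMDA peaks and 4.26% of all control peaks. The 5 were those at the inner Nlgn1 start and the neighbouring pair in Nrxn3. These windows were chosen after the positions had been seen.

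Farther along Nlgn1 a second place brought the lists close together. An NMDA summit of 3.33-fold lay 5.13 kb from a control summit of 2.11-fold, at 83.7 and 83.1% of the gene, and the peaks did not overlap. The remaining peaks of the gene were more than 46 kb from a summit of the other list.

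Nlgn2 encodes the neuroligin of inhibitory synapses and Nlgn3 one found at both kinds of synapse. Nlgn2 (chromosome 11, 69823123 to 69837784, 14.7 kb) had its nearest NMDA peak 94.3 kb away and its nearest control peak 141 kb away. Nlgn3 (chromosome X, 101299179 to 101321350, 22.2 kb) was far from any peak, the nearest NMDA summit being 30035 kb away and the nearest control summit 21989.5 kb. Chromosome X as a whole carried 0.00293 NMDA peaks and 0.00176 control peaks per 100 kb. On chromosome 11 these densities were 0.152 and 0.119.

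Dlg2 encodes PSD-93, a membrane-associated guanylate kinase of the postsynaptic density. It lies on the plus strand of chromosome 7, 90476188 to 92449246, and at 1973 kb is the longest of the 9 genes. Its 11 NMDA peaks were the second highest number of any protein-coding gene in that list, after the 13 of Top2b. They had 2.04- to 6.99-fold enrichment with a median of 2.92. Its 4 control peaks had 2.28-, 2.47-, 2.82- and 3.18-fold enrichment. No NMDA peak overlapped a control peak, and the closest summits of the lists were 14.1 kb apart.

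A pair of NMDA peaks in Dlg2 stood out by their height. The peak at 91442579 to 91443177 had 6.99-fold enrichment and ranked 40th of 3646 by fold. The peak at 91247890 to 91248321 had 6.02-fold enrichment and ranked 61st. They lay 195 kb apart near the middle of the gene, at 49.0 and 39.1% of its length, and the nearest control summits were 325 and 130 kb away. The next highest NMDA peak of the gene had 3.44-fold enrichment. Over the 9 genes 2 of 16 NMDA peaks and 0 of 19 control peaks reached 4-fold, where 4.99% of all NMDA peaks and 0.513% of all control peaks did. Dlg2 was 1 of 6 protein-coding genes with at least 2 NMDA peaks of that height.

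Along Dlg2 the peaks of both lists stopped well before the 3′ end. The NMDA peaks lay between 4.21 and 71.6% of the gene and the control peaks between 9.35 and 74.0%. Of the 11 NMDA peaks 6 lay in the 615 kb between the annotated 5′ end and the first of the 3 starts listed in the promoter table, and 5 in the 972 kb between that start and the second. The control peaks were split 2 and 2 over the same stretches. The last 2 stretches, 173 and 214 kb long, held none. Neighbouring NMDA summits were from 23.9 to 383 kb apart. The nearest approach to a listed start was 73.4 kb in the NMDA list and 27.3 kb in the control list.

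**Figure D3:**
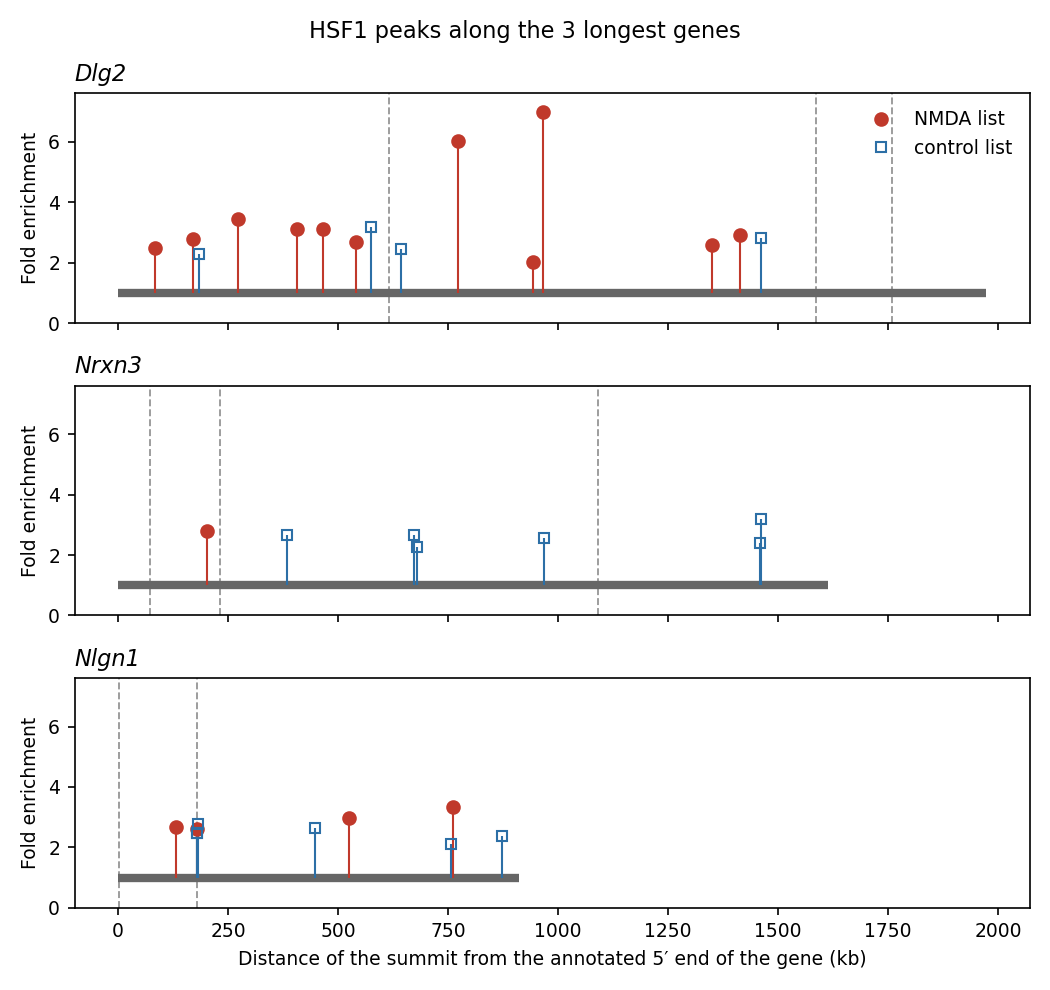
Position of each peak summit along Dlg2, Nrxn3 and Nlgn1 (kb from the annotated 5′ end) against its fold enrichment, with filled red circles for the NMDA list, open blue squares for the control list, grey bars for the gene and dashed lines for starts with a listed promoter. The NMDA peaks of 6.02- and 6.99-fold stand near the middle of Dlg2, and the inner start of Nlgn1 carries peaks of both lists.

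Dlg4 encodes PSD-95, the close relative of PSD-93 and the most studied scaffold of excitatory synapses. It is short (chromosome 11, 70017203 to 70045535, 28.3 kb). No peak lay in it or nearby, the nearest NMDA summit being 288 kb away and the nearest control summit 290 kb. The paired heat shock element was nevertheless found in 1 of its 3 listed promoters, and also in 1 of the 3 of Dlg2. These stretches of 60 bases are shown because they are the only ones of 13 listed promoters of 6 of the genes that hold it, with the element in capitals (GRCm38.p6, plus strand, chr7:92062265-92062324 for Dlg2 and chr11:70018550-70018609 for Dlg4):
Dlg2 promoter stretch: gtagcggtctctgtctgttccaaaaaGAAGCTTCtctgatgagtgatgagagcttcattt
Dlg4 promoter stretch: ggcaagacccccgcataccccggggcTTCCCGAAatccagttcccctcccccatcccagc

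The element began 103 bp before the start in Dlg2 and 29 bp before the start in Dlg4. From that Dlg2 start the nearest NMDA summit was 174 kb away and the nearest control summit 126 kb. A count of 2 of 13 compares with 15.1% of the 32851 tabled promoters of the same length, so the element was about as frequent as in promoters at large. The longer form with 3 triplets, which is GAA, TTC and GAA with any 2 bases between neighbours, or its reverse complement, was in none of the 13 and in 0.597% of all. A match is a string of letters and not a bound site.

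Shank genes encode the large scaffold proteins that bind Dlgap and Homer. Shank3 (chromosome 15, 89493013 to 89560261, 67.2 kb) had 2 control peaks and no NMDA peak. The first, at 89500414 to 89500679, lay 918 bp downstream of the start listed at 89499608, and the second, at 89511125 to 89511658, lay 11.9 kb downstream of it, inside the noncoding gene Gm15609 as well. From the annotated 5′ end of Shank3 their summits were 7.51 and 18.5 kb away. Both were given 2.98-fold enrichment, a value that repeats because the control list holds only 383 distinct folds. The nearest NMDA summit was 320 kb from the gene. The Shank3 promoter window (GRCm38.p6, chr15:89499358-89499657, plus strand) is shown as the listed start nearest to a peak after that of Nlgn1. It has 81.0% G and C, against 44.7% in the inner Nlgn1 window and a median of 52.7% over all tabled promoters, and no peak reached into it:
Shank3 promoter: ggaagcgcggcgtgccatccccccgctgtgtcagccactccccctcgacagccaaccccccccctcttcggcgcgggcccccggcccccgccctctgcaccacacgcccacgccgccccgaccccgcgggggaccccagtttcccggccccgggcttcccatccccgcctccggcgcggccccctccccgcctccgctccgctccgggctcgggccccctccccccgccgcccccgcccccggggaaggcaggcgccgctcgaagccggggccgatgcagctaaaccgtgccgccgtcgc

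Shank2 (chromosome 7, 143978077 to 144426043, 448 kb) had 1 control peak of 2.57-fold at 144038096 to 144038534. The nearest NMDA summit was 470 kb from the gene and 668 kb from that peak. Shank1 (chromosome 7, 44308916 to 44360094, 51.2 kb) had no peak nearer than 2150.0 kb in the NMDA list or 681 kb in the control list. Promoters of Shank1, Shank2 and Nlgn3 were not used here.

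The peaks of the 9 genes were also set against the listed starts. A summit within 5 kb of a tabled start was found for 1 of 16 NMDA peaks and 4 of 19 control peaks, all of them at the inner Nlgn1 start or at Shank3. Over the whole lists this was so for 18.1% of NMDA peaks and 26.0% of control peaks. The NMDA count was below the share of its list and the control count was near it. Gene length was not matched here. Most peaks of the 9 genes lay in Dlg2, Nrxn3 and Nlgn1, long genes where most positions are far from a listed start. The lists rarely coincided at the 9 genes, as they rarely did elsewhere. A peak of the other list overlapped 1 of 16 NMDA peaks and 1 of 19 control peaks, against 2.61% of all NMDA peaks and 2.90% of all control peaks.

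Because longer genes offer more room for peaks, each gene was set against the 100 other protein-coding genes nearest to it in length. In the NMDA list none of 100 reached the 11 peaks of Dlg2 (exact Clopper-Pearson 95% interval 0 to 3.62%), the highest being 8 and the median 2. For Dlg2, though, only 6 of the 100 are longer, and the shortest has 774 kb. Per 100 kb Dlg2 had 0.552 NMDA peaks, and 1 of the 100 had as many. The 4 NMDA peaks of Nlgn1 were reached by 11 of 100 genes (5.62 to 18.8%), and the 1 of Nrxn3 by 82 of 100 (73.1 to 89.0%).

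In the control list none of 100 genes of like length reached the 6 peaks of Nlgn1 (0 to 3.62%), the highest being 5, and none had as many per 100 kb. With summits within 5 kb of each other counted as 1 site, Nlgn1 had 4 control sites and 5 of 100 genes reached that number. For the 6 control peaks of Nrxn3 the number was 2 of 100 (0.243 to 7.04%), and per 100 kb it was 5 of 100. Only 7 of these 100 genes are longer than Nrxn3. For the 4 control peaks of Dlg2 it was 11 of 100 (5.62 to 18.8%), and per 100 kb 31 of 100. For the 2 control peaks of Shank3 it was 2 of 100 (0.243 to 7.04%). Shank2, with 0 NMDA peaks and 1 control peak, stood among genes of which 59 and 55 of 100 had at least 1, and 33 of 100 had as many control peaks per 100 kb. The genes without any peak are short. Among genes of their length an NMDA peak was present for 4 to 9 of 100 and a control peak for 6 to 13 of 100, so having none was the usual state. These intervals cover counting error only, and the genes were picked with their counts known, so the shares describe them and test nothing.

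**Figure D4:**
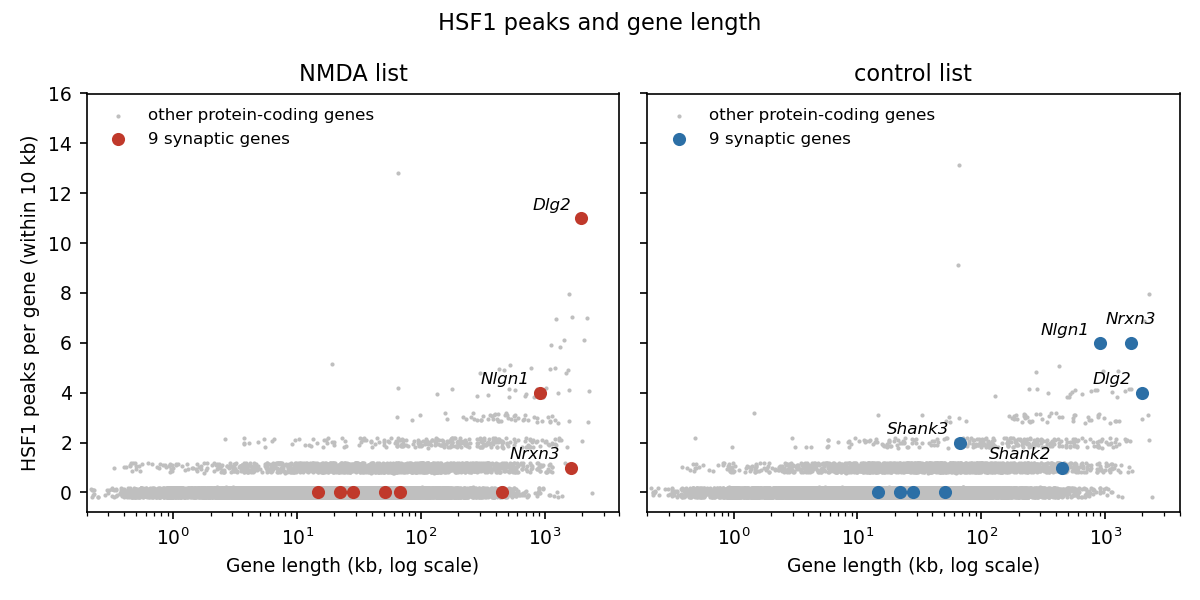
Gene length in kb (log scale) against the number of HSF1 peaks per gene, for the NMDA list at left and the control list at right, with the 9 genes in colour and all other protein-coding genes in grey (grey points are shifted slightly up or down for visibility). Dlg2 stands above the other genes near its length in the NMDA list, and Nlgn1 and Nrxn3 stand near the top for theirs in the control list.

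Genes closest in length gave very different counts. The 3 nearest to Dlg2 were Macrod2 with 2 NMDA and 3 control peaks, Lrp1b with 6 and 7, and Lsamp, which encodes a neuronal adhesion protein, with 7 and 3. The 3 nearest to Nrxn3 were Fhit with 1 NMDA and 4 control peaks, Csmd1 with 7 and 1, and Ctnna3 with 4 and 2. The 3 nearest to Nlgn1 were Dpp6 with 1 NMDA and 0 control peaks, Wwox with 0 and 0, and Adamtsl1 with 1 and 1. No other protein-coding gene had the same pair of counts as Dlg2, as Nrxn3 or as Nlgn1. Only 60 genes had at least 5 peaks in both lists together, so few could have shared such a pair.

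Whether a gene's peaks were divided between the lists unlike all peaks, of which 52.4% are in the NMDA list, was tested for every protein-coding gene with a peak. By two-sided exact binomial tests with Benjamini-Hochberg adjustment, 0 of 3666 genes passed (0%), and 1 had an unadjusted p under 0.05. Dlg2 with 11 NMDA and 4 control peaks had an unadjusted exact p of 0.125. Nrxn3 with 1 and 6 had 0.0592, and Nlgn1 with 4 and 6 had 0.534. The unadjusted exact p depended on the setting. With the NMDA share taken from peaks near genes (49.97%), it was 0.0766 for Dlg2 and 0.125 for Nrxn3, and with only peaks of q below 0.05 it was 0.0777 and 0.182. With only these peaks, Nlgn1 had 4 NMDA and 3 control peaks, so its direction rests on the weaker control peaks. The adjusted p was 1 for each of these genes, and also when only the 60 genes with at least 5 peaks were tested. A p above the threshold does not show that a gene's peaks were divided like the rest. The test also treats peaks as independent, which neighbouring peaks may not be.

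Apart from the pair in Dlg2, the peaks of the 9 genes lay in the range where most peaks of their list lie. The median fold of the NMDA peaks at the 9 genes was 2.86, against 2.69 for that list, and that of the control peaks was 2.57, against 2.67 for that list. A q below 0.05 was listed for 15 of the 16 NMDA peaks and 12 of the 19 control peaks, against 76.3 and 68.9% of all peaks in those lists. The exception among the NMDA peaks was the one of 2.04-fold in Dlg2. The 7 control peaks above that q were 3 in Nlgn1, 2 in Nrxn3 and 2 in Dlg2. One of those in Nlgn1 was the middle peak of the run at the inner start. Peak widths were close to those of the lists, with medians of 332 bp against 303 bp in the NMDA list and 327 bp against 316 bp in the control list.

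**Figure D5:**
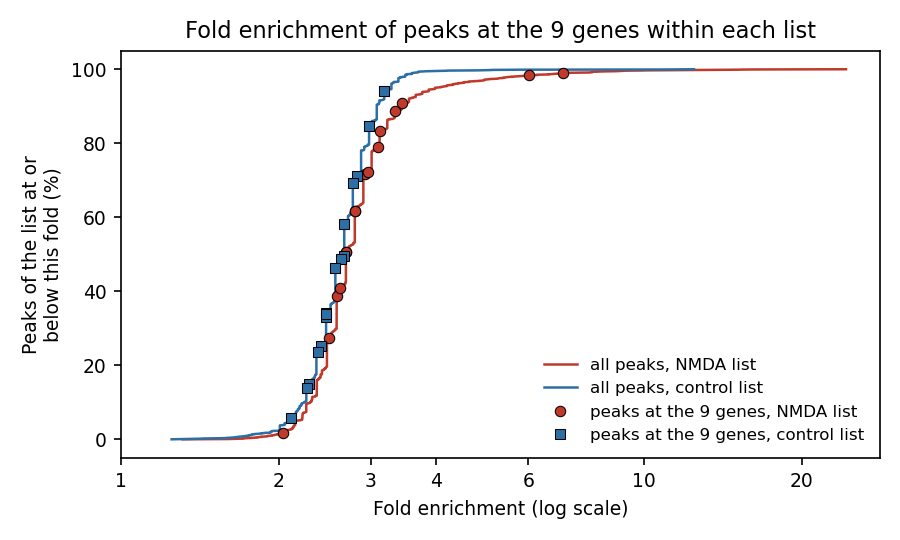
Cumulative share of peaks (%) by fold enrichment (log scale) in the NMDA list (red line) and the control list (blue line), with the peaks at the 9 genes as red circles and blue squares on the line of their list. Most lie in the middle of their list, and the Dlg2 peaks of 6.02- and 6.99-fold lie at the upper end of the NMDA list.

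The wider family of synaptic adhesion and scaffold genes was described with 66 further genes, all of which were found in the annotation. An NMDA peak was present at 26 of them (58 peaks) and a control peak at 28 (47 peaks). Their median length was 150 kb, against 17.3 kb for all protein-coding genes. Of the 8 genes above 1000 kb, 7 had an NMDA peak and 7 a control peak, where 87.8 and 85.7% of genes of that length outside the 9 and the 66 did. Of the 14 genes of 400 to 1000 kb, 10 had an NMDA peak and 9 a control peak, where 62.0 and 57.6% of the genes outside these lists did. Of the 15 genes of 100 to 400 kb, 7 had an NMDA peak and 9 a control peak, where 27.1 and 25.2% did. Of the 12 genes of 30 to 100 kb, 0 had an NMDA peak and 2 a control peak, where 11.4 and 13.1% did. Of the 17 shorter genes, 2 had an NMDA peak and 1 a control peak, where 4.68 and 5.69% did. The highest counts were those of Ptprd, a receptor phosphatase of the presynaptic membrane, with 4 NMDA and 8 control peaks, and of Tenm2, a teneurin, with 7 and 3. Lrrc4c, which encodes the netrin-G ligand NGL-1, had 6 and 1, the scaffold gene Magi2 5 and 2, and the adhesion gene Cadm2 4 and 5. Cntnap2 had 3 and 2 and Magi1 3 and 1. Tenm3, the longest of 9 genes whose higher count was 2, had 2 and 2. Counts were higher in the NMDA list at 15 of the 66 genes and higher in the control list at 12. None of these genes passed the test of the split between the lists, which counts as low as theirs could hardly pass.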

How the data were processed

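HSF1 ChIP-seq libraries of cortical neurons were represented by 2 deposited narrowPeak lists, each combining the 2 ChIP libraries of a condition. The sources used here do not say how they were combined. FastQC, Trimmomatic, BWA, SAMtools and MACS2, and the builds mm10 and GRCm38.p6, are named without versions, per the submitters' processing notes. The authors deposited for each peak a display score, a fold enrichment (a ratio over background, scaled within each list), a q (like the p, which was not used) as a −log10 value, and the summit position. Fold values are the authors' own and describe peaks within a list. Counts, depth and replicate values were not analysed here, so precision from depth is unknown.

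Summits were assigned to protein-coding genes of the RefSeq GRCm38.p6 table (inside the gene or within 10 kb). Strand and starts came from the promoter table for 6 of the 9 genes, and chromosome 18 was not used for starts. Exons are not in these tables, so peaks are not placed in exons or introns. Genes of like length were the 100 nearest in log length. The split of peaks between lists was tested by exact binomial tests (SciPy 1.17.1) over all genes with a peak, with Benjamini-Hochberg adjustment, after a check on simulated data. That check gave its changed genes more peaks than any gene held here. It does not show that the test can find a change at counts as low as these. Poisson and Clopper-Pearson intervals cover counting error only. Other synaptic genes were listed by name, with the 8 of highest count in either list named (the longer gene first where counts tied), and the 3 genes nearest in length were named for each gene with at least 3 peaks. The 9 genes and all lists were chosen with earlier results of these data known. Alternatives changed the window, the peak filter, the number of neighbours in length and the motif.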

Additional observations from a re-analysis of the deposited data

How the results depend on the processing

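Of 117 values recomputed under the listed alternatives 110 kept their direction and stayed within 1.5 times the reported count, or within the 95% interval of a reported share or density, as did 25 of 32 added after the data were seen. These intervals are wide, and the control density of 0.226 per 100 kb with q below 0.05 lies inside its own. The division of a gene's peaks between the lists was judged by direction alone. Some values could hardly move, such as the number of genes passing the split test. Counts at the 9 genes were the same with the gene body alone or 5 kb margins. Control peaks at the 9 genes numbered 12 with only peaks of q below 0.05 and 7 (0.132 per 100 kb) with only peaks at or above the median fold. Among peaks of at least 4-fold, an added setting, there were 2 at 1 gene in the NMDA list and 0 at 0 genes in the control list. With q below 0.05 the Nlgn1 split turned round, its NMDA share being 2.25 percentage points above that of the lists (4 NMDA and 3 control peaks), without a call. The share of genes of like length with as many peaks was 73% for Nrxn3 in the NMDA list with 200 neighbours, and 5% for Nlgn1 in the control list with close peaks as 1 site. Per 100 kb it was 31% for Dlg2 and 33% for Shank2, both in the control list. With summits within 5 kb counted as shared, 3 control peaks were shared. All were at the inner Nlgn1 start and near the same NMDA peak, and shared NMDA peaks stayed at 1, so no further site was added. The element of 3 triplets was in 0 member promoters. A filter leaves fewer peaks, but not to the same degree in each list. At or above the median fold of its list, 12 of 16 NMDA peaks and 7 of 19 control peaks remained. The cause of the changes was not tested. No replicate could be left out and no block could be fitted. No paired analysis was possible because libraries of a condition share a single list. How depth limits the counts was not tested.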
